A study of Mus musculus with 14 samples.

Results

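Day 1 after stroke was compared with sham over all genes, using 4 of the 14 libraries of the series: 2 of day 1 and 2 of sham, chosen by their labels alone. All 4 come from cells labelled as microglia, isolated by FACS from the cerebral cortex of C57BL/6 mice aged 8 to 10 weeks, and their total RNA was sequenced. The day 1 mice had the distal middle cerebral artery ligated for good, and both common carotid arteries were closed for 7 min. The sham mice had lesions of the skull surface only. Neither the labels nor the design text used here give the sort markers and gate, the sex of the mice or the time at which sham mice were sampled. They also leave unsaid whether the 2 libraries of a group stem from different mice. The p-values reflect the spread between libraries of the same group, estimated over all 7 groups, and this spread is possibly a technical one.

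Microglia are the resident macrophages of the brain and survey it in the steady state through receptors such as P2ry12 and Cx3cr1. After an artery is closed they meet hypoxia, dying neurons, myelin debris and blood proteins, and they are known to secrete cytokines and chemokines, to engulf dead cells and to change their metabolism. Neutrophils and monocytes enter the injured cortex from the blood in the first days, and a sort for cortical myeloid cells can hold them as well.

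Total counts were 15254983 and 100625099 in the sham libraries and 20440442 and 144553466 in the day 1 libraries, in the order replicate 1 and replicate 2, which holds for every pair of values below. Replicate 2 was thus 6.60 times as deep as replicate 1 in sham and 7.07 times at day 1, and 3 counts correspond to 0.197 and 0.0298 CPM (counts scaled to the same library total) in sham and to 0.147 and 0.0208 CPM at day 1, before TMM scaling. Levels are CPM after TMM scaling. On the log2 CPM scale the sham libraries correlated with each other over genes at r = 0.919 and the day 1 libraries at r = 0.885, while the 4 pairs across groups lay between 0.843 and 0.89.

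The label of the cells was checked against marker lists. The 18 microglial markers summed to 2562 and 1969 CPM in sham and to 24052 and 3955 CPM at day 1, against 10766 to 45330 CPM in the 10 libraries of days 3 to 90. Day 1 replicate 1 therefore lay inside the range of the later libraries, and day 1 replicate 2 and both sham libraries lay below it. Most of this sum was Csf1r in sham (1687 and 1235 CPM). In day 1 replicate 1 most of it was C1qa, C1qb and C1qc (3095, 9102 and 5018 CPM). The 17 neutrophil markers went the other way, with 21315 and 40957 CPM in sham and 1536 and 7682 CPM at day 1, against 378 to 6243 CPM later. Day 1 replicate 1 was again inside the later range and the other 3 libraries above it. The 14 monocyte markers summed to 9314 and 17587 CPM in sham and to 2727 and 12236 CPM at day 1, against 1270 to 5186 CPM later. The libraries labelled sham had lower microglial and higher neutrophil and monocyte marker sums than the later libraries. The cells are therefore called sorted cells here, and the part of this makeup in the gene differences was not tested. In bulk RNA, fewer cells of a type and less RNA per cell cannot be told apart.

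**Figure D1:**
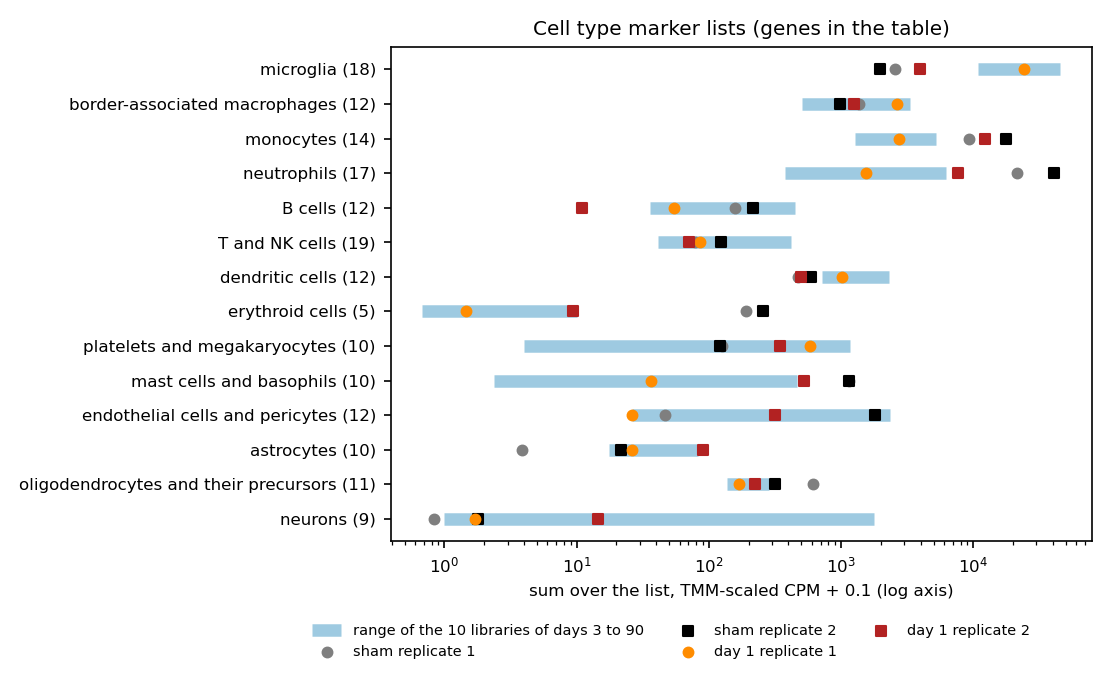
Sums of TMM-scaled CPM over 14 cell type marker lists (log axis, 0.1 added) in the 2 sham and 2 day 1 libraries, with a bar for the range of the 10 libraries of days 3 to 90. Both sham libraries and day 1 replicate 2 lie outside the later range for microglial, monocyte and neutrophil markers, and day 1 replicate 1 lies inside it.

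Genes that rose at day 1 included Arg1, Il1a, Ccl7, Mmp14 and 13 of 22 chemokines, and genes that fell included Vnn3, Tmem71 and 8 of 12 B cell markers. Of the 13861 genes tested, 631 (4.55%) had an adjusted p under 0.05 (Benjamini-Hochberg) in edgeR's quasi-likelihood test, 441 higher at day 1 (3.18%) and 190 lower (1.37%). These genes are said to be called, or to have risen or fallen. In all 631 both day 1 libraries lay on one side of both sham libraries. Among all genes tested, that separation alone was met by 3081 above sham (22.2%) and 3189 below it (23%). The higher genes had a median log2 difference of 3.99 between the replicate 1 libraries and 3.16 between the replicate 2 libraries, and the lower genes of -3.07 and -2.47. Over all genes the replicates agreed much less: the 2 differences had the same sign in 58.6% of genes, 3546 genes were higher at day 1 in replicate 1 and lower in replicate 2 (25.6%), and 2194 were the reverse (15.8%).

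The count depended on single libraries. It was 92 without sham replicate 1, 76 without sham replicate 2, 273 without day 1 replicate 1 and 947 without day 1 replicate 2, and 54 genes, 43 higher and 11 lower, were called in all 4 of these fits. Of the genes described below, these are Arg1, Dab2, Ccl7, Cxcl16, Il1a, Tnf, Tnfsf9, Spp1, Plin2, Abca1, Stab1, Mmp12, Mmp14, Areg, Ecm1, Vnn3, Tmem71, Alox15, Blk and Ms4a1, and each other gene said to rise or fall lost its call in at least 1 of the 4. The libraries of other times entered the fit to estimate the spread: without 1 day 21 library the count was 1058 or 1098, and without 1 day 90 library it was 367. Of the 1878 genes that DESeq2 called 57.3% were higher, and of the 547 that limma-voom called 51.7% were higher, against 69.9% in edgeR. Beside many adjusted p-values below, the range they took when any 1 of the 4 libraries was left out is given as the leave-one-out range.

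**Figure D2:**
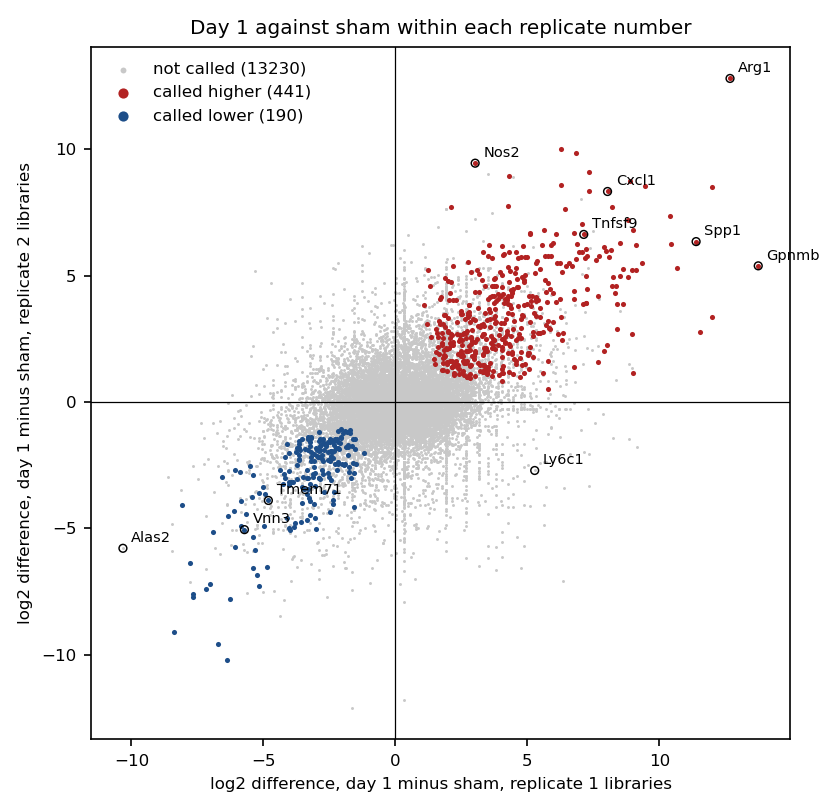
Each point is 1 of the 13861 genes tested, with its log2 difference between day 1 and sham in the replicate 1 libraries (x axis) and in the replicate 2 libraries (y axis), both in log2 CPM with a prior count of 2. The 441 genes called higher lie in the upper right and the 190 called lower in the lower left, while uncalled genes lie on every side.

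The largest change shared by both replicates was in Arg1, which encodes arginase 1, the enzyme that splits arginine into ornithine and urea. Arg1 had 0.182 and 0.487 CPM in sham and 1332 and 3700.1 CPM at day 1. Both day 1 libraries stood far above both sham libraries, with log2 differences of 12.67 and 12.81 within replicates and a fitted value of 12.77 ± 1.57 (adjusted p = 0.00186, leave-one-out range 0.00344 to 0.0423). Dab2, an endocytic adaptor, had 0.0606 and 1.96 CPM in sham and 339 and 733 CPM at day 1 (log2 8.96 ± 1.23, adjusted p = 0.00291, leave-one-out range 0.00524 to 0.0166). Its groups did not overlap, and the sham libraries differed from each other more than the day 1 libraries did.

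Of the 16 genes of arginine, polyamine and itaconate metabolism 6 rose (37.5%, against 3.18% of all genes tested) and none fell. Their median log2 difference was 1.49 against 0.04 over all genes tested. Nos2, the inducible nitric oxide synthase that competes for the same arginine, had 0.121 and 0.119 CPM in sham and 1.13 and 103 CPM at day 1. Both day 1 libraries were above sham, but the level in replicate 2 was far above that in replicate 1, with log2 differences of 3.02 and 9.45 (fitted 8.75 ± 1.67, adjusted p = 0.0143, leave-one-out range 0.000694 to 0.137). Slc7a8, an amino acid transporter, went from 13.9 and 3.57 CPM to 156 and 195 CPM (log2 4.34 ± 0.79, adjusted p = 0.0114), and the cationic amino acid transporter Slc7a2 from 0.182 and 0.190 CPM to 2.38 and 1.69 CPM (log2 3.43 ± 0.83, adjusted p = 0.0384). Polyamine synthesis from ornithine was represented by Odc1, ornithine decarboxylase, at 11.4 and 14.3 CPM in sham and 42.3 and 158 CPM at day 1 (log2 2.96 ± 0.70, adjusted p = 0.0348). Srm, spermidine synthase of the same route, had 8.18 and 13.2 CPM in sham and 87.9 and 58.3 CPM at day 1 (log2 2.77 ± 0.44, adjusted p = 0.00613). All 4 of these genes had both day 1 libraries above both sham libraries. Irg1, the enzyme that makes itaconate, was not called and had log2 differences of -0.63 and 3.00 within the replicates, and Arg2, the mitochondrial arginase, had 207 and 402 CPM in sham and 87.8 and 213 CPM at day 1 with overlapping groups. Leaving out sham replicate 1, sham replicate 2, day 1 replicate 1 and day 1 replicate 2 in turn left 2, 2, 5 and 4 members called higher.

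Chemokines, the secreted proteins that draw leukocytes along a gradient, formed the function list with the highest share of members called higher. Of 22 chemokine genes tested 13 rose (59.1%, against 3.18% of all genes) and none fell, and 17 of the 22 had both day 1 libraries above both sham libraries (against 22.2%). Their median log2 difference was 4.26, or 4.48 with genes at 0 placed at their bound, and 4.89 and 3.92 within replicates 1 and 2. The count of 13 was 3 with either sham library left out, 10 without day 1 replicate 1 and 13 without day 1 replicate 2.

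Cxcl1, a ligand of Cxcr2 and an attractant of neutrophils, had 0.849 and 13.8 CPM in sham and 228 and 4470.0 CPM at day 1 (log2 8.31 ± 1.76, adjusted p = 0.0257, leave-one-out range 0.0156 to 0.113). The groups did not overlap, although replicate 2 was higher than replicate 1 in both. Its relatives Cxcl2 and Cxcl3 were not called, with 1274 and 1568 CPM in sham and 1963 and 10476 CPM at day 1 for Cxcl2 (adjusted p = 0.184). Cxcl3 had 15.4 and 341 CPM in sham and 382 and 4589 CPM at day 1 (adjusted p = 0.399). In both, day 1 replicate 2 stood far above the other 3 libraries. The monocyte attractant Ccl7 had 0.182 and 0.808 CPM in sham and 273 and 136 CPM at day 1 (log2 8.57 ± 1.01, adjusted p = 0.00153, leave-one-out range 0.00213 to 0.0247). Ccl2, which shares its receptor Ccr2, had 15.1 and 34.0 CPM in sham and 344 and 317 CPM at day 1 (log2 3.75 ± 0.66, adjusted p = 0.0101). Ccl12, another ligand of Ccr2, had 0.121 and 0.321 CPM in sham and 41.7 and 73.6 CPM at day 1 (log2 7.86 ± 1.25, adjusted p = 0.00613). These 3 genes were high in both day 1 libraries and low in both sham libraries. Cxcl16, a membrane-bound chemokine that also binds oxidised lipoprotein, had 3.58 and 4.93 CPM in sham and 700.1 and 246 CPM at day 1 (log2 6.79 ± 0.64, adjusted p = 0.000387). Cxcl10, an interferon-inducible attractant of T cells, had 10.9 and 11.1 CPM in sham and 114 and 128 CPM at day 1 (log2 3.46 ± 0.59, adjusted p = 0.00875), with the 2 libraries of each group within a small distance of each other.

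Some chemokines were at or near 0 in sham. Ccl8 had no count in either sham library and 7.38 and 0.394 CPM at day 1, at least 130.3-fold higher against a floor of 3 counts over the sham group (adjusted p = 0.0309, leave-one-out range 0.00586 to 0.177), with replicate 1 well above replicate 2. Ccl22, a ligand of Ccr4, had 1 count in the 2 sham libraries together and 10.4 and 17.3 CPM at day 1. Ccl6 was the 1 member with both day 1 libraries below sham, at 3435 and 6485 CPM in sham and 1537 and 2258 CPM at day 1 (adjusted p = 0.286). Of the 13 chemokine receptor genes 1 rose (7.69%) and none fell, and the count of 1 was 0 without sham replicate 2 and 1 in each of the other 3 fits. Of all genes tested 3.18% rose. The other 12 receptors were not called, and 6 of them (46.2% of the list, against 23% of all genes tested) had both day 1 libraries below sham. Among these was Cxcr2, the neutrophil receptor of Cxcl1, with 1375 and 914 CPM in sham and 88.8 and 276 CPM at day 1 (adjusted p = 0.283).

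Among 21 cytokines and their antagonists 7 rose (33.3%, against 3.18% of all genes tested) and none fell. The median log2 difference was 1.74, or 2.78 and 2.24 within replicates 1 and 2. Il1a, the alarmin form of interleukin 1, had 1.21 and 1.07 CPM in sham and 196 and 607 CPM at day 1 (log2 8.46 ± 1.00, adjusted p = 0.00153, leave-one-out range 0.00207 to 0.0359), a wide gap between groups in both replicates. Il1b, the form that inflammasomes process, had 5593 and 7789.6 CPM in sham and 5255 and 12346 CPM at day 1, with day 1 replicate 1 below both sham libraries and day 1 replicate 2 above them (log2 0.40 ± 0.60, adjusted p = 0.748). The receptor antagonist Il1rn had 417 and 367 CPM in sham and 184 and 311 CPM at day 1, both day 1 libraries lower, and was not called (adjusted p = 0.646). Tnf had 33.9 and 21.9 CPM in sham and 1017 and 1162 CPM at day 1 (log2 5.29 ± 0.69, adjusted p = 0.00234, leave-one-out range 0.00405 to 0.0491), and its 2 libraries at day 1 lay close together. Tnfsf9, the ligand of the costimulatory receptor 4-1BB, had 2.18 and 2.41 CPM in sham and 309 and 242 CPM at day 1. The libraries of each group lay close together and the groups far apart (log2 6.90 ± 0.51, adjusted p = 0.000169, leave-one-out range 0.000287 to 0.00632).

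Ifnb1, the gene of interferon beta, had no count in either sham library and 15.6 and 10.6 CPM at day 1, at least 439.9-fold higher against the same floor (adjusted p = 0.00248, leave-one-out range 0.00405 to 0.0507). Il6 had 0.364 and 0.879 CPM in sham and 9.30 and 21.2 CPM at day 1 (log2 4.56 ± 1.03, adjusted p = 0.0288, leave-one-out range 0.0532 to 0.208), and Il12b, a subunit shared by interleukins 12 and 23, had 2 counts in the sham libraries together and 0.851 and 0.871 CPM at day 1. Both were low genes that did not overlap between groups. Il23a, the other subunit of interleukin 23, had 1.64 and 1.62 CPM in sham and 17.3 and 39.1 CPM at day 1 (log2 4.12 ± 0.66, adjusted p = 0.0066). Il10, an inhibitory cytokine, had 1.15 and 0.273 CPM in sham and 43.1 and 21.3 CPM at day 1 and was not called (adjusted p = 0.0804). Without sham replicate 1, sham replicate 2, day 1 replicate 1 and day 1 replicate 2 the list kept a count of 4, 3, 6 and 7 called higher.

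Many chemokine and cytokine genes are regulated through NF-kB, a transcription factor held in the cytoplasm by inhibitors such as Nfkbia. The 250 bases before the start of 4 genes that rose are shown because each holds an NF-kB motif, GGGA and TTCC with 2 bases of any kind between them, on either strand and in capitals. They are from RefSeq in build GRCm38.p6, read 5′ to 3′ on the strand of the gene, at chr5:90890995-90891244 (plus strand) for Cxcl1, chr5:92348890-92349139 (minus strand) for Cxcl10, chr4:88522795-88523044 (minus strand) for Ifnb1 and chr12:55492648-55492897 (minus strand) for Nfkbia.
Cxcl1: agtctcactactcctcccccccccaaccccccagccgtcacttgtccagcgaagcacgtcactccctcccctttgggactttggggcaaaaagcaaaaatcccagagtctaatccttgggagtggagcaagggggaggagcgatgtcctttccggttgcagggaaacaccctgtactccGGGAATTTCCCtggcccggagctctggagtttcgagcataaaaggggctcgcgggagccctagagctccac
Cxcl10: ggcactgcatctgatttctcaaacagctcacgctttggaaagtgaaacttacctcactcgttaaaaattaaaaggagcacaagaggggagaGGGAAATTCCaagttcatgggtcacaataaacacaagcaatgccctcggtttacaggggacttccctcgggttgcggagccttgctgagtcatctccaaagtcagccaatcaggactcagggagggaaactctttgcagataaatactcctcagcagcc
Ifnb1: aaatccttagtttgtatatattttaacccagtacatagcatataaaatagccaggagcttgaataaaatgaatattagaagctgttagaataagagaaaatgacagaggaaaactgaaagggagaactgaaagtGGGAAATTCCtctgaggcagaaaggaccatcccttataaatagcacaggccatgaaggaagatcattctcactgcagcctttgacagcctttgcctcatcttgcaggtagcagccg
Nfkbia: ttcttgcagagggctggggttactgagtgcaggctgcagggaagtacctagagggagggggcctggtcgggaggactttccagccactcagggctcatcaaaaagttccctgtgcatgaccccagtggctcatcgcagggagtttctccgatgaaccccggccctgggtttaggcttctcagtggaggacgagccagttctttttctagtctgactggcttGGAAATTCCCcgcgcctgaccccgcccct
The match begins 71 bases before the start in Cxcl1, where 2 matches on opposite strands overlap, and 159, 116 and 29 bases before it in Cxcl10, Ifnb1 and Nfkbia. In windows of 300 bases, 250 before and 50 after the start, the motif was found in 441 of 27025 promoters (1.632%), in 4 of 16 chemokine genes with a promoter in the table (25%), 3 of 15 cytokine genes (20%) and 2 of 16 NF-kB genes (12.5%). A match is a description of the sequence and not of binding. Cxcl2 and Cxcl3 hold one and were not called.

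The regulators and targets of NF-kB themselves moved differently in the 2 replicates. Of 21 genes 4 rose (19%, against 3.18% of all genes tested) and none fell. The median log2 difference was -0.54 within replicate 1 and 1.50 within replicate 2. In 10 of the 21 day 1 was lower in replicate 1 and higher in replicate 2 (against 15.8% of all genes). In 18 of 21 the level was higher in day 1 replicate 2 than in day 1 replicate 1, against 6438 of all 13861 genes tested. Nfkbia, the inhibitor that NF-kB induces, had 1352 and 1848 CPM in sham and 5547 and 8209 CPM at day 1 above sham in both replicates (log2 2.10 ± 0.54, adjusted p = 0.0486, leave-one-out range 0.0778 to 0.272). Ier3, an early response gene that affects cell survival, had 113 and 66.9 CPM in sham and 1658 and 1145 CPM at day 1 (log2 3.96 ± 0.71, adjusted p = 0.0109). Sod2, the mitochondrial superoxide dismutase, had 54.9 and 75.7 CPM in sham and 243 and 232 CPM at day 1 (log2 1.86 ± 0.46, adjusted p = 0.0413).

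Other genes of the pathway were not called. Tnfaip3, the ubiquitin-editing enzyme A20, had 474 and 206 CPM in sham and 327 and 1216 CPM at day 1 (log2 differences -0.54 and 2.56, adjusted p = 0.311). Nfkbiz had 640.4 and 389.6 CPM in sham and 414 and 2278 CPM at day 1 (log2 differences -0.63 and 2.55, adjusted p = 0.236). Ptgs2, the inducible cyclooxygenase, had 633 and 297 CPM in sham and 291 and 1204 CPM at day 1 (log2 differences -1.12 and 2.02, adjusted p = 0.604). In Tnfaip3 and Nfkbiz day 1 replicate 1 lay between the sham libraries, in Ptgs2 it lay just below both, and in all 3 genes day 1 replicate 2 was the highest of the 4 libraries. The count of 4 NF-kB genes was 0 with either sham library left out, 2 without day 1 replicate 1 and 1 without day 1 replicate 2.

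Interferon-stimulated genes, the antiviral targets of interferons, were mostly lower at day 1, while Ifnb1 was higher. Of 30 genes none rose by edgeR and 4 fell (13.3%, against 1.37% of all genes), and 20 had both day 1 libraries below both sham libraries (against 23%), with a median of -1.11 and of -1.23 and -1.01 within the replicates. Cmpk2, a mitochondrial nucleotide kinase, had 159 and 103 CPM in sham and 12.6 and 21.9 CPM at day 1 (log2 -2.93 ± 0.61, adjusted p = 0.0204). Rsad2, the antiviral enzyme viperin, had 239 and 183 CPM in sham and 48.8 and 65.7 CPM at day 1 (log2 -1.88 ± 0.41, adjusted p = 0.0261). Oasl2 had 406 and 319 CPM in sham and 81.4 and 96.7 CPM at day 1 (log2 -2.03 ± 0.51, adjusted p = 0.045). These 3 were lower in both day 1 libraries. Isg15 had 42.1 and 47.5 CPM in sham and 45.2 and 27.4 CPM at day 1 and did not pass (adjusted p = 0.8). The count of 4 was 0 with either sham library left out, 1 without day 1 replicate 1 and 5 without day 1 replicate 2, and DESeq2 called 11 and limma-voom 5. The neutrophil sum given above was also lower in both day 1 libraries. The monocyte sum was lower within each replicate number, but its groups overlapped. The part of these cells was not tested.

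**Figure D3:**
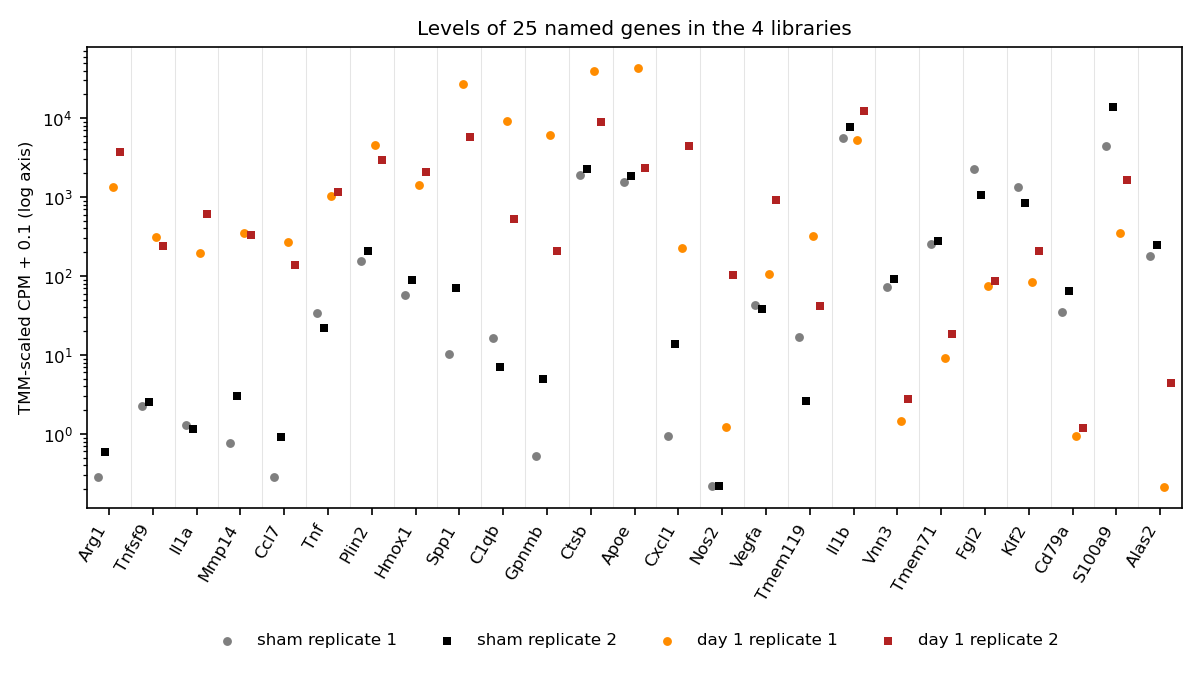
Levels of 25 named genes in the 4 libraries as TMM-scaled CPM with 0.1 added (log axis), circles for replicate 1 and squares for replicate 2, grey and black for sham and orange and red for day 1. Arg1, Tnfsf9, Il1a and Mmp14 have all day 1 points far above all sham points, whereas Gpnmb and Apoe are much higher in day 1 replicate 1 and Nos2, Cxcl1 and Vegfa in day 1 replicate 2.

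Disease-associated microglia are a phagocytic, lipid-handling state described around plaques and lesions. Of 30 of its genes 9 rose (30%) and 1 fell (3.33%), against 3.18% and 1.37% of all genes tested. The median log2 difference was 3.41 within replicate 1 and 0.81 within replicate 2. In 25 of 30 the day 1 level was higher in replicate 1 than in replicate 2, against 7423 of all 13861 genes tested. Spp1, which encodes osteopontin, had 10.1 and 71.0 CPM in sham and 27179 and 5790.1 CPM at day 1 (log2 8.67 ± 1.33, adjusted p = 0.00543, leave-one-out range 0.00393 to 0.046). Gpnmb, a transmembrane glycoprotein of macrophages with loaded lysosomes, had 0.424 and 4.92 CPM in sham and 6113 and 207 CPM at day 1 (log2 differences 13.74 and 5.39, fitted 10.18 ± 1.76, adjusted p = 0.00911, leave-one-out range 0.00218 to 0.0707). Both genes were above sham in both replicates, with the 2 day 1 libraries far apart. Igf1, an insulin-like growth factor, had 0.243 and 0.665 CPM in sham and 68.1 and 3.26 CPM at day 1 (log2 6.20 ± 1.22, adjusted p = 0.0165). Ch25h, which makes 25-hydroxycholesterol, had 0.0606 and 0.0713 CPM in sham and 11.1 and 6.10 CPM at day 1 (log2 6.94 ± 0.92, adjusted p = 0.00244). Clec7a, the beta-glucan receptor that is usually counted with this set, fell from 1483 and 1275 CPM to 328 and 231 CPM (log2 differences -2.17 and -2.46, adjusted p = 0.0467). Leaving out the libraries in the same order as above left 2, 2, 5 and 16 members called higher.

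Of 34 lysosomal genes 8 rose (23.5%) and 1 fell (2.94%), against 3.18% and 1.37% of all genes tested. In 26 both day 1 libraries lay above both sham libraries (against 22.2%). Ctsb, a cathepsin protease, had 1888 and 2249.5 CPM in sham and 39989.6 and 8976 CPM at day 1 (log2 3.56 ± 0.80, adjusted p = 0.0281, leave-one-out range 0.00818 to 0.196). Ctsl, another cathepsin, had 51.2 and 84.5 CPM in sham and 1813 and 1187 CPM at day 1 (log2 4.47 ± 0.84, adjusted p = 0.0132). Lgmn, the asparaginyl protease legumain, had 86.3 and 71.8 CPM in sham and 3501 and 1294 CPM at day 1 (log2 4.92 ± 0.83, adjusted p = 0.00859). In all 3 the lower day 1 library was still well above the higher sham library. Atp6v0d2, a subunit of the vacuolar proton pump, had 0 and 0.0713 CPM in sham and 11.5 and 0.200 CPM at day 1, so that nearly all of its signal was in replicate 1 (log2 6.74 ± 1.64, adjusted p = 0.0428, leave-one-out range 0.00213 to 0.317). Tfeb, a transcription factor of lysosomal genes, was the member that fell, from 246 and 188 CPM to 64.7 and 86.0 CPM (log2 -1.53 ± 0.39, adjusted p = 0.0471). In 30 of 34 members the level was higher in day 1 replicate 1 than in day 1 replicate 2, against 7423 of all 13861 genes tested. The list medians were 2.27 and 0.81 within replicates 1 and 2. The called count was 0 with either sham library left out, 3 without day 1 replicate 1 and 15 without day 1 replicate 2. The microglial marker sum moved in the same direction, and its part was not tested.

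Of 24 genes of lipid uptake, storage and efflux 5 rose (20.8%) and 1 fell (4.17%), against 3.18% and 1.37% of all genes tested. Plin2, the coat protein of lipid droplets, had 156 and 204 CPM in sham and 4526 and 2942 CPM at day 1 (log2 4.37 ± 0.56, adjusted p = 0.00223, leave-one-out range 0.00213 to 0.0433). Hilpda, which blocks triglyceride breakdown under hypoxia, had 4.49 and 16.1 CPM in sham and 484 and 337 CPM at day 1 (log2 5.31 ± 0.94, adjusted p = 0.0101, leave-one-out range 0.0144 to 0.09). Abca1, the exporter of cholesterol, had 11.5 and 4.12 CPM in sham and 182 and 146 CPM at day 1 (log2 4.40 ± 0.63, adjusted p = 0.00366, leave-one-out range 0.00504 to 0.0488). These 3 were high in both day 1 libraries, as was Nr1h3, the oxysterol-sensing receptor LXR alpha, with 4.43 and 7.09 CPM in sham and 75.4 and 40.4 CPM at day 1 (log2 3.32 ± 0.67, adjusted p = 0.0183). Apoe, the main apolipoprotein of the brain, differed between the 2 replicates: it had 1550.0 and 1836 CPM in sham and 43109 and 2335 CPM at day 1, log2 differences of 4.80 and 0.35, and was not called (adjusted p = 0.0994, leave-one-out range 0.0226 to 0.861, the lowest without day 1 replicate 2). Acsl1, which activates fatty acids, fell from 120.3 and 108 CPM to 21.3 and 39.2 CPM (log2 -1.92 ± 0.46, adjusted p = 0.0369). Lipid genes called higher numbered 2 with either sham library left out, 3 without day 1 replicate 1 and 8 without day 1 replicate 2.

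Complement opsonises debris and synapses, and its recognition molecule C1q is made in the brain mostly by microglia. Of 19 complement genes 4 rose (21.1%, against 3.18% of all genes tested): the C1q chains C1qa, C1qb and C1qc and the receptor C3ar1. C1qa had 8.61 and 2.66 CPM in sham and 3095 and 213 CPM at day 1 (log2 8.21 ± 1.31, adjusted p = 0.00613, leave-one-out range 0.00121 to 0.0822). C1qb had 16.4 and 6.95 CPM in sham and 9102 and 523 CPM at day 1, C1qc 17.3 and 4.59 CPM in sham and 5018 and 296 CPM at day 1, and C3ar1 6.00 and 2.19 CPM in sham and 895 and 148 CPM at day 1. In all 4 the sham libraries were low, day 1 replicate 1 was the highest and day 1 replicate 2 lay between them. The microglial marker sum had the same order. C1qa, C1qb and C1qc are themselves on that list and made up most of its sum in day 1 replicate 1. For them the shared order is thus no separate observation, and the part of microglia was not tested. C3, the component that all complement pathways cleave, had 400.3 and 288 CPM in sham and 26.6 and 260.0 CPM at day 1, lower in both, and was not called (adjusted p = 0.373). Itgam, a chain of complement receptor 3, had 1006 and 696 CPM in sham and 285 and 1783 CPM at day 1 with overlapping groups, and 84.6% of its 50-base words occur in other genes, so its counts are uncertain. Without sham replicate 1, sham replicate 2, day 1 replicate 1 and day 1 replicate 2 the count of 4 was 1, 0, 4 and 4.

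Receptors and bridging proteins of engulfment were divided, with 5 of 26 higher (19.2%) and 1 lower (3.85%), against 3.18% and 1.37% of all genes tested. The median was -0.16, or -0.32 with genes at 0 at their bound. Stab1, a scavenger and phosphatidylserine receptor, had 7.15 and 6.27 CPM in sham and 295 and 303 CPM at day 1 (log2 5.48 ± 0.71, adjusted p = 0.00234, leave-one-out range 0.00405 to 0.0488), with nearly equal levels in the 2 libraries of a group. Gas6, the bridge between dying cells and TAM receptors, had 0.424 and 0.963 CPM in sham and 202 and 30.3 CPM at day 1 (log2 7.33 ± 1.12, adjusted p = 0.00538). Its receptor Mertk had 1.82 and 0.903 CPM in sham and 53.8 and 26.7 CPM at day 1 (log2 4.91 ± 0.80, adjusted p = 0.00687). Trem2, the lipid-sensing receptor of microglia, had 17.2 and 28.0 CPM in sham and 1391 and 185 CPM at day 1 (log2 5.13 ± 1.16, adjusted p = 0.0286, leave-one-out range 0.0128 to 0.208). All 4 had both day 1 libraries above sham. Mfge8, another bridging protein, had 12.6 and 15.7 CPM in sham and 28.5 and 22.6 CPM at day 1 and was not called against sham (adjusted p = 0.242). The member that fell was Itgb3, an integrin chain that platelets also carry, from 24.7 and 7.26 CPM to 0.511 and 1.24 CPM (log2 -4.15 ± 0.99, adjusted p = 0.0355). The higher count was 1 with either sham library left out, 3 without day 1 replicate 1 and 6 without day 1 replicate 2.

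Of 14 genes of MHC class II presentation 3 rose (21.4%, against 3.18% of all genes tested) and none fell. Ifi30, a lysosomal thiol reductase that unfolds antigens, had 82.5 and 126 CPM in sham and 933 and 306 CPM at day 1 (log2 2.57 ± 0.60, adjusted p = 0.032). The costimulator Cd86 had 36.0 and 36.7 CPM in sham and 98.0 and 118 CPM at day 1 (log2 1.57 ± 0.39, adjusted p = 0.0419), while its relative Cd80 had 47.8 and 39.2 CPM in sham and 10.2 and 23.0 CPM at day 1, lower in both day 1 libraries and not called (adjusted p = 0.176). The class II chain H2-Ab1 had 584 and 910.3 CPM in sham and 5663 and 2918 CPM at day 1, above sham in both and not called (adjusted p = 0.103). The count of 3 was 0 with either sham library or day 1 replicate 1 left out, and 2 without day 1 replicate 2.

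Metalloproteinases cut the matrix and the vessel wall, and tissue inhibitors hold them in check. Of 28 genes of matrix proteases, inhibitors and matrix proteins 5 rose (17.9%, against 3.18% of all genes tested) and none fell. Mmp14, the membrane-bound protease that activates other metalloproteinases, had 0.667 and 2.95 CPM in sham and 349 and 332 CPM at day 1 (log2 7.52 ± 0.71, adjusted p = 0.000387, leave-one-out range 0.000932 to 0.00515). Mmp12, the macrophage elastase, had 0.182 and 0.463 CPM in sham and 27.5 and 65.8 CPM at day 1 (log2 7.07 ± 0.86, adjusted p = 0.00186, leave-one-out range 0.00272 to 0.0322). Neither protease overlapped between groups. Sdc4, a heparan sulfate proteoglycan, had 1.33 and 1.13 CPM in sham and 73.6 and 63.9 CPM at day 1 (log2 5.81 ± 0.78, adjusted p = 0.00258, leave-one-out range 0.00436 to 0.0557). The protease inhibitor Timp1 had 0.121 and 2.67 CPM in sham and 42.5 and 64.6 CPM at day 1 (log2 5.18 ± 1.19, adjusted p = 0.0309). All 4 separated the groups clearly in both replicates. Mmp9, the gelatinase that neutrophils store in granules, had 4775 and 3964 CPM in sham and 211 and 1341 CPM at day 1, lower in both day 1 libraries and not called (adjusted p = 0.258). It is itself on the neutrophil marker list and so part of that sum, and the part of neutrophils was not tested. Thbs1, the matrix glycoprotein thrombospondin 1, had 729 and 290.1 CPM in sham and 1558 and 9531 CPM at day 1, by far the highest in day 1 replicate 2 (adjusted p = 0.153). The count of 5 was 3 with either sham library left out, 4 without day 1 replicate 1 and 3 without day 1 replicate 2.

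Among 18 growth and repair factors 7 rose (38.9%, against 3.18% of all genes tested) and none fell. In 16 both day 1 libraries lay above both sham libraries (against 22.2%). The median log2 difference was 3.69, or 3.29 with genes at 0 at their bound. Areg, an epidermal growth factor receptor ligand, had 0.0606 and 0.143 CPM in sham and 13.2 and 56.6 CPM at day 1 (log2 8.22 ± 1.04, adjusted p = 0.00213, leave-one-out range 0.00203 to 0.0406). Gdf15, a stress-induced hormone, had 1.33 and 0.559 CPM in sham and 209 and 32.4 CPM at day 1 (log2 7.04 ± 1.08, adjusted p = 0.00543, leave-one-out range 0.00213 to 0.0782). Pdgfa had 0.424 and 0.392 CPM in sham and 22.9 and 12.1 CPM at day 1 (log2 5.42 ± 0.81, adjusted p = 0.00503). Areg was higher in day 1 replicate 2 and the other 2 in day 1 replicate 1, and none of the 3 overlapped sham. Of the vascular growth factors, Vegfb had 0.788 and 0.856 CPM in sham and 45.2 and 6.69 CPM at day 1, highest in day 1 replicate 1 (log2 4.97 ± 1.04, adjusted p = 0.0209), whereas Vegfa, given with the hypoxia genes, was highest in day 1 replicate 2. Without sham replicate 1, sham replicate 2, day 1 replicate 1 and day 1 replicate 2 the count of 7 was 2, 1, 4 and 6.

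Heme from lysed red cells is split by Hmox1 into iron, biliverdin and carbon monoxide, and ferroportin, encoded by Slc40a1, exports the iron. Hmox1 had 57.1 and 88.2 CPM in sham and 1421 and 2065 CPM at day 1, nearly the same rise in both replicates (log2 differences 4.64 and 4.55, fitted 4.58 ± 0.81, adjusted p = 0.0101, leave-one-out range 0.0204 to 0.105). Slc40a1 had 1098 and 968 CPM in sham and 25.8 and 130.4 CPM at day 1, a fall in both replicates (log2 differences -5.41 and -2.89, fitted -3.72 ± 0.66, adjusted p = 0.0101, leave-one-out range 0.00173 to 0.0592). They were the only members called by edgeR among 21 genes of heme and iron handling, 4.76% in each direction (against 3.18% and 1.37% of all genes tested). Both calls were lost with either sham library left out.

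Nrf2 is a transcription factor that oxidants and electrophiles release from Keap1 and that induces glutathione and thioredoxin enzymes. Of 24 genes of this system 3 rose (12.5%, against 3.18% of all genes tested) and none fell. Gclm, a subunit of the enzyme that starts glutathione synthesis, had 38.4 and 43.6 CPM in sham and 263 and 621 CPM at day 1 (log2 3.43 ± 0.67, adjusted p = 0.0155, leave-one-out range 0.0197 to 0.135). Srxn1, which repairs oxidised peroxiredoxins, had 9.09 and 4.94 CPM in sham and 116 and 121 CPM at day 1 (log2 4.08 ± 0.92, adjusted p = 0.0277). Txnrd1, thioredoxin reductase, had 69.5 and 56.3 CPM in sham and 202 and 420.0 CPM at day 1 (log2 differences 1.54 and 2.90, adjusted p = 0.0226). In these 3 genes both day 1 libraries were above sham. Gsr, glutathione reductase, had 3016 and 3575 CPM in sham and 396 and 1646 CPM at day 1, lower in both and not called (adjusted p = 0.209). Nfe2l2, the gene of Nrf2 itself, had 337 and 313 CPM in sham and 389 and 319.9 CPM at day 1 (log2 0.13 ± 0.40, adjusted p = 0.893). The count of 3 was 0 with either sham library left out and 2 with either day 1 library left out.

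The 3 Nrf2 genes that rose each hold the letters TGACNNNGC of the antioxidant response element on either strand within 300 bases around their start. The 250 bases before the start are shown for the pair whose match lies there, in capitals as read on the gene's strand, at chr3:122245307-122245556 (plus strand) for Gclm and chr10:82858956-82859205 (plus strand) for Txnrd1 in GRCm38.p6 of RefSeq.
Gclm: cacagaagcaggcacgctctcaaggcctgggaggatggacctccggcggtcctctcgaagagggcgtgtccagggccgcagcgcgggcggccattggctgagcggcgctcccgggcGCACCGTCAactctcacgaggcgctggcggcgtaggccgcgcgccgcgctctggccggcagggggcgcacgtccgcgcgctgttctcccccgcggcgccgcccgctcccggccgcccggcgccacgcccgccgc
Txnrd1: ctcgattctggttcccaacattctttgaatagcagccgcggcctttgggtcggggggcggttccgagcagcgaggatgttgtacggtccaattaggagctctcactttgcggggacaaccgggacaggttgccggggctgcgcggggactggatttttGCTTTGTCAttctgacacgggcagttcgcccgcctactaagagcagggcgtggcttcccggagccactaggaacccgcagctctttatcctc
The match begins 134 bases before the start in Gclm and 92 bases before it in Txnrd1. The motif is a common one, found in 3781 of 27025 promoters (13.99%), in 8 of 21 Nrf2 genes with a promoter in the table (38.1%) and in 5 of 17 genes of heme and iron handling (29.41%), and 5 of the 8 were not called.

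Hypoxia shifts cells to glycolysis and induces vessel growth factors through Hif1a. Of 29 genes of glycolysis and hypoxia 2 rose and 2 fell (6.90% each, against 3.18% and 1.37% of all genes tested). The medians were 0.14 within replicate 1 and 1.14 within replicate 2. Vegfa had 43.2 and 37.5 CPM in sham and 107 and 906 CPM at day 1, a much larger difference in replicate 2 (log2 differences 1.31 and 4.59, fitted 3.65 ± 0.86, adjusted p = 0.0338, leave-one-out range 0.00784 to 0.204). Tpi1, a glycolytic isomerase, had 128 and 175 CPM in sham and 723 and 619 CPM at day 1 (log2 2.15 ± 0.46, adjusted p = 0.0224). The members that fell were Pfkfb4, a regulator of the flux into glycolysis, from 396 and 187 CPM to 39.7 and 68.3 CPM (log2 -2.43 ± 0.60, adjusted p = 0.0427), and Ndrg1, a stress-responsive gene, from 189 and 166 CPM to 29.2 and 53.4 CPM (log2 -2.10 ± 0.43, adjusted p = 0.0192). Slc2a3, a glucose transporter, had 1026 and 558 CPM in sham and 6.75 and 102 CPM at day 1 and was not called (adjusted p = 0.133). In 24 of 29 members the day 1 level was higher in replicate 2 than in replicate 1, against 6438 of all 13861 genes tested. The higher calls of this list depended on single libraries. The letters ACGTG of the hypoxia response element core were found in 18 of 27 promoters of the list (66.67%) and in 21.78% of all promoters. Of these 18 genes only Vegfa was called, and Tpi1 was not among them.

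The unfolded protein response expands the folding capacity of the endoplasmic reticulum. Of its 25 genes 4 rose (16%, against 3.18% of all genes tested) and none fell: Sdf2l1 with 52.1 and 80.2 CPM in sham and 650.0 and 163 CPM at day 1, Manf with 31.2 and 58.2 CPM in sham and 406 and 136 CPM at day 1, Calr with 293 and 391 CPM in sham and 1722 and 928 CPM at day 1, and Pdia4 with 63.5 and 76.8 CPM in sham and 265 and 239 CPM at day 1. These encode chaperones and folding factors, with fitted log2 values of 2.62 ± 0.64, 2.60 ± 0.66, 1.95 ± 0.47 and 1.85 ± 0.38 (adjusted p = 0.0398, 0.0459, 0.0362 and 0.0205). All 4 were highest in day 1 replicate 1. Chac1, a target of the stress-induced factor Atf4, had 31.6 and 21.0 CPM in sham and 1.82 and 5.04 CPM at day 1 (adjusted p = 0.104). Ddit3, which promotes cell death under lasting stress, had 41.0 and 55.3 CPM in sham and 26.9 and 30.1 CPM at day 1 (adjusted p = 0.433). Both were lower in both day 1 libraries and not called. The count of 4 was 0 without sham replicate 1, sham replicate 2 or day 1 replicate 1 and 4 without day 1 replicate 2, and it was 0 with only sham and day 1 in the fit.

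Immediate early genes, which respond to stimuli within minutes and also to tissue handling, were divided. Of 27 genes 3 rose (11.1%) and 1 fell (3.70%), against 3.18% and 1.37% of all genes tested. Nr4a2, an orphan nuclear receptor, had 4.18 and 2.71 CPM in sham and 20.5 and 44.5 CPM at day 1 (log2 3.25 ± 0.59, adjusted p = 0.0114). Myc had 9.15 and 9.27 CPM in sham and 32.3 and 53.6 CPM at day 1 (log2 2.22 ± 0.46, adjusted p = 0.0195). The phosphatase Dusp2 had 105 and 79.6 CPM in sham and 368 and 268 CPM at day 1 (log2 1.78 ± 0.40, adjusted p = 0.0277). All 3 were above sham in both replicates. Klf2, a transcription factor that keeps leukocytes quiescent, fell from 1357 and 833 CPM to 82.9 and 207 CPM (log2 -2.92 ± 0.72, adjusted p = 0.0419, leave-one-out range 0.0446 to 0.219). Fos had 4750.3 and 4257 CPM in sham and 5593 and 2915 CPM at day 1 with overlapping groups (adjusted p = 0.958). The higher count of 3 was 0 with either sham library left out, 2 without day 1 replicate 1 and 3 without day 1 replicate 2.

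Proliferation of microglia and macrophages is known to follow brain injury. Of 40 cell cycle genes 5 rose (12.5%) and 1 fell (2.5%), against 3.18% and 1.37% of all genes tested. The mitotic kinase gene Plk1 had 0.0606 and 0.119 CPM in sham and 6.47 and 0.781 CPM at day 1 (log2 5.13 ± 1.25, adjusted p = 0.0384). Cdk1 had 0.243 and 0.618 CPM in sham and 14.5 and 1.96 CPM at day 1 (log2 4.15 ± 0.90, adjusted p = 0.0246). The cyclin gene Ccnb2 had 0.424 and 0.701 CPM in sham and 11.9 and 2.86 CPM at day 1 (log2 3.65 ± 0.89, adjusted p = 0.0384). In each the signal was mostly in day 1 replicate 1. Mki67, a marker of dividing cells, had 10.8 and 4.72 CPM in sham and 7.55 and 5.87 CPM at day 1 with overlapping groups (adjusted p = 0.892). Kif23, a kinesin of the cleavage furrow, went against the list and fell from 128 and 143 CPM to 3.57 and 11.6 CPM (log2 -4.15 ± 1.03, adjusted p = 0.0424, leave-one-out range 0.0583 to 0.227). The count of 5 was 0 with either sham library or day 1 replicate 1 left out, 9 without day 1 replicate 2 and 0 in limma-voom.

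**Figure D4:**
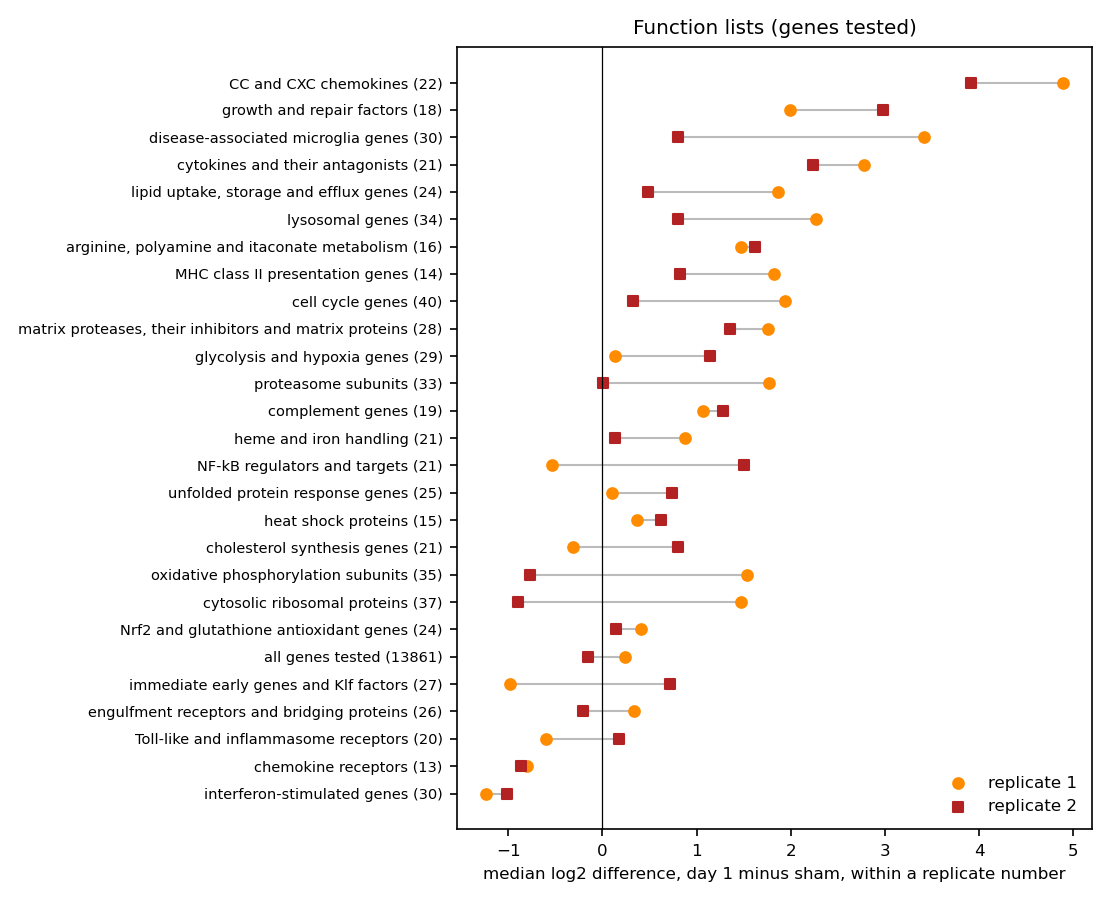
Median log2 difference between day 1 and sham over the tested genes of 26 function lists and of all genes, within replicate 1 (orange circles) and within replicate 2 (red squares), ordered by the median of the fitted values. The chemokine list has high medians in both replicates (4.89 and 3.92), and the arginine list has similar ones (1.48 and 1.62). Lysosomal and disease-associated genes are higher in replicate 1 and NF-kB and glycolysis genes in replicate 2.

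Of 3 complexes that nearly all cells use, ribosomes and the respiratory chain mostly moved in opposite directions in the 2 replicates. The proteasome was higher at day 1 in replicate 1 and on median unchanged in replicate 2. Of 37 cytosolic ribosomal proteins 27 were higher at day 1 in replicate 1 and lower in replicate 2, as were 28 of 35 oxidative phosphorylation subunits (against 25.6% of all genes), and 16 of 33 proteasome subunits. The other 17 proteasome subunits were higher at day 1 in both replicates. Both day 1 libraries lay above both sham libraries in 48.5% of the proteasome subunits (against 22.2% of all genes tested). The medians were 1.47 and -0.89, 1.54 and -0.77, and 1.77 and 0.00 within replicates 1 and 2. No ribosomal protein or oxidative phosphorylation gene was called by edgeR, where 0 and 2 had an unadjusted p under 0.05 and DESeq2 called 0 and 1. Among the proteasome genes 1 of 33 rose (3.03%, against 3.18% of all genes tested), Psmd7, from 35.0 and 55.1 CPM to 185 and 119 CPM (log2 1.75 ± 0.44, adjusted p = 0.046). In sham replicate 2 exceeded replicate 1 in 36 of 37, 35 of 35 and 33 of 33 members of the 3 lists, against 7506 of all 13861 genes tested. At day 1 replicate 1 exceeded replicate 2 in 24 of 37, 32 of 35 and 27 of 33, against 7423 of all 13861.

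Where the mean log2 CPM over the 4 libraries was 3 or more, the 12 called genes with the largest fall in the replicate where it was smaller were led by Vnn3, a gene of the pantetheinase family, with 73.2 and 90.3 CPM in sham and 1.36 and 2.70 CPM at day 1 (log2 -5.31 ± 0.66, adjusted p = 0.00186, leave-one-out range 0.00481 to 0.0247). Tmem71 had 258 and 276 CPM in sham and 9.13 and 18.5 CPM at day 1 (log2 -4.27 ± 0.56, adjusted p = 0.00234, leave-one-out range 0.00436 to 0.0247). Alox15, a lipoxygenase that oxidises polyunsaturated fatty acids, had 93.6 and 144 CPM in sham and 9.19 and 5.57 CPM at day 1 (log2 -4.01 ± 0.64, adjusted p = 0.00613, leave-one-out range 0.0299 to 0.0496). In these 3 genes the sham libraries were close to each other and both day 1 libraries far below. Fgl2, a secreted coagulation and immune regulator, went from 2269 and 1073 CPM to 74.0 and 86.4 CPM (log2 -4.38 ± 0.81, adjusted p = 0.0118), Bmx, a tyrosine kinase, from 95.3 and 155 CPM to 1.65 and 10.2 CPM (log2 -4.38 ± 0.82, adjusted p = 0.0123), and Ltb, lymphotoxin beta, from 165 and 184 CPM to 11.1 and 20.2 CPM (log2 -3.47 ± 0.72, adjusted p = 0.0198). The other 6 were Scnn1a, Kif23, Bank1, Irgm2, Cd300e and Tmem154, with log2 values between -4.95 and -3.38. Of the 12, Vnn3, Tmem71 and Alox15 were called with each of the 4 libraries left out. The leukocyte antigen gene Ptprc, which encodes CD45, also fell, from 2331 and 3403 CPM to 253 and 670.0 CPM (log2 -2.64 ± 0.55, adjusted p = 0.0206, leave-one-out range 0.011 to 0.109). The neutrophil and B cell marker sums were also lower in both day 1 libraries than in both sham libraries. The monocyte sum was lower within each replicate number, but its groups overlapped. The part of these cells in the falls was not tested.

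Most genes of the microglial marker list were higher at day 1, but some were not. The part of cell makeup in these differences was not tested. Of 18 microglial markers 7 rose (38.9%, against 3.18% of all genes tested) and none fell. In 12 of the 18 both day 1 libraries lay above both sham libraries (against 22.2% of all genes tested), and in none both lay below. The median log2 difference was 2.54. Tmem119, a membrane protein of microglia, had 16.9 and 2.48 CPM in sham and 318 and 41.6 CPM at day 1 (log2 4.22 ± 1.04, adjusted p = 0.0418, leave-one-out range 0.0149 to 0.274). Its groups did not overlap, and day 1 replicate 1 was the highest. P2ry12 had 47.5 and 17.6 CPM in sham and 91.0 and 22.9 CPM at day 1 (adjusted p = 0.559). Cx3cr1 had 392 and 149 CPM in sham and 261 and 53.8 CPM at day 1 (adjusted p = 0.594). Csf1r had 1687 and 1235 CPM in sham and 748 and 1454 CPM at day 1 (adjusted p = 0.805). In these 3 the groups overlapped. The count of 7 was 1 without sham replicate 1, 0 without sham replicate 2, 5 without day 1 replicate 1 and 7 without day 1 replicate 2. Of 12 markers of border-associated macrophages, which line the vessels and meninges, 7 rose (58.3%), among them Ms4a7 from 3.03 and 9.74 CPM to 1193 and 142 CPM (log2 6.70 ± 1.14, adjusted p = 0.00881) and Pf4 from 7.88 and 16.0 CPM to 530.1 and 251 CPM (log2 5.03 ± 1.04, adjusted p = 0.0203), and the count was 1 with either sham library left out, 3 without day 1 replicate 1 and 7 without day 1 replicate 2. Mrc1, the mannose receptor, had 9.28 and 7.21 CPM in sham and 51.1 and 45.1 CPM at day 1 (log2 2.55 ± 0.41, adjusted p = 0.00653).

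Of 12 B cell markers 8 fell (66.7%) and none rose, Cd79a from 35.2 and 65.2 CPM to 0.851 and 1.09 CPM (log2 -5.68 ± 0.93, adjusted p = 0.00691, leave-one-out range 0.0314 to 0.0643) and Ms4a1, which encodes CD20, from 27.6 and 30.1 CPM to 0.624 and 0.290 CPM (log2 -6.07 ± 0.95, adjusted p = 0.00593, leave-one-out range 0.0309 to 0.0366). Pax5, Blk and Cr2 had no count in either day 1 library. Over all genes tested 1.37% fell and 3.18% rose. The count of 8 was 5, 6, 5 and 7 without sham replicate 1, sham replicate 2, day 1 replicate 1 and day 1 replicate 2. Of 19 T and NK cell markers 4 fell (21.1%) and 1 rose: Gzma fell from 14.1 and 34.3 CPM to 1.48 and 1.50 CPM (log2 -4.02 ± 0.91, adjusted p = 0.0282), and Il7r, the interleukin 7 receptor, rose from 0.728 and 0.511 CPM to 44.8 and 29.8 CPM (log2 5.94 ± 0.78, adjusted p = 0.00236, leave-one-out range 0.00383 to 0.0538), against its list. The T and NK cell count of 4 was 0 with either sham library left out, 2 without day 1 replicate 1 and 1 without day 1 replicate 2. No neutrophil marker was called by edgeR, although 14 of 17 had both day 1 libraries below both sham libraries (against 23%), with 3 at an unadjusted p under 0.05, 3 called by DESeq2 and 0 by limma-voom. S100a9, a calcium-binding protein of neutrophils and monocytes, had 4389.6 and 13868 CPM in sham and 347 and 1646 CPM at day 1 (log2 -3.20 ± 1.71, adjusted p = 0.306). Alas2, the first enzyme of heme synthesis in red cell precursors, had 181 and 243 CPM in sham and 0.113 and 4.37 CPM at day 1, far lower in both day 1 libraries and not called (adjusted p = 0.0794, leave-one-out range 0.0414 to 0.213). The platelet receptor Itga2b had 30.4 and 33.3 CPM in sham and 0.340 and 1.98 CPM at day 1 and was not called (adjusted p = 0.147).

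To see what set day 1 apart among the stroke times, its 2 libraries were tested against the mean of days 3 to 90. This test uses no sham library but shares the day 1 libraries with the comparison above. It called 25 genes (0.18%), 21 higher at day 1 (0.152%) and 4 lower (0.0289%). In none of the 25 did both day 1 libraries lie outside the range of all 10 later libraries. Of the 25, 15 were also called against sham, all 15 in the same direction. The count was 235 without day 1 replicate 1 and 1 without day 1 replicate 2. Leaving out 1 later library gave between 5 and 378 calls, with 50 without day 3 replicate 1, 378 and 46 without either day 21 library, 10 and 7 without either day 7 library, 7 and 5 without either day 60 library and 9 and 8 without either day 90 library.

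Arg1 had 1332 and 3700.1 CPM at day 1, 2441 and 564 CPM at day 3 and a median of 2.99 CPM over the 10 later libraries (log2 8.38 ± 0.65, adjusted p = 0.000313). Nos2 had 1.13 and 103 CPM at day 1, 4.67 and 4.40 CPM at day 3 and a later median of 0.598 CPM (log2 6.11 ± 0.75, adjusted p = 0.00639). Both enzymes that use arginine were highest, among the 12 stroke libraries, in day 1 replicate 2. Cxcl1 had 228 and 4470.0 CPM at day 1 and 652 and 274 CPM at day 3 (log2 5.01 ± 0.81, adjusted p = 0.0459), and Il23a 17.3 and 39.1 and 47.4 and 19.3 CPM (log2 3.77 ± 0.38, adjusted p = 0.00229). Hmox1 had 1421 and 2065 CPM at day 1 and 2079.6 and 279 CPM at day 3 (log2 2.77 ± 0.46, adjusted p = 0.0418), and Gclm 263 and 621 and 399 and 93.6 CPM (log2 2.60 ± 0.40, adjusted p = 0.0268). In these 4 genes day 3 replicate 1 reached or passed the lower day 1 library. Ecm1, a secreted matrix protein, had 37.0 and 47.0 CPM in sham, 1121 and 1526 CPM at day 1, 1292 and 1159 CPM at day 3 and a later median of 212 CPM (log2 2.40 ± 0.26 against the later times, adjusted p = 0.00333). It stayed high at day 3 in both libraries.

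Ppbp, a platelet chemokine gene, had 26.7 and 27.2 CPM in sham, 49.9 and 93.1 CPM at day 1 and a later median of 0.263 CPM (log2 7.07 ± 0.80, adjusted p = 0.00639), and was not called against sham. Among the 4 lower genes were Mfge8, St8sia6 and Cxcl13. Mfge8 had 28.5 and 22.6 CPM at day 1 and a later median of 83.8 CPM with a highest value of 1025 CPM (log2 -2.36 ± 0.37, adjusted p = 0.0289), and St8sia6, a sialyltransferase, 1.42 and 0.892 CPM and 12.7 CPM (log2 -3.16 ± 0.49, adjusted p = 0.0268). Cxcl13, a B cell attractant, had no count at day 1 and a later median of 4.67 CPM. In each of these 3 genes the day 3 libraries were close to those of day 1, and all 6 libraries of days 21 to 90 were higher than both day 1 libraries.

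**Figure D5:**
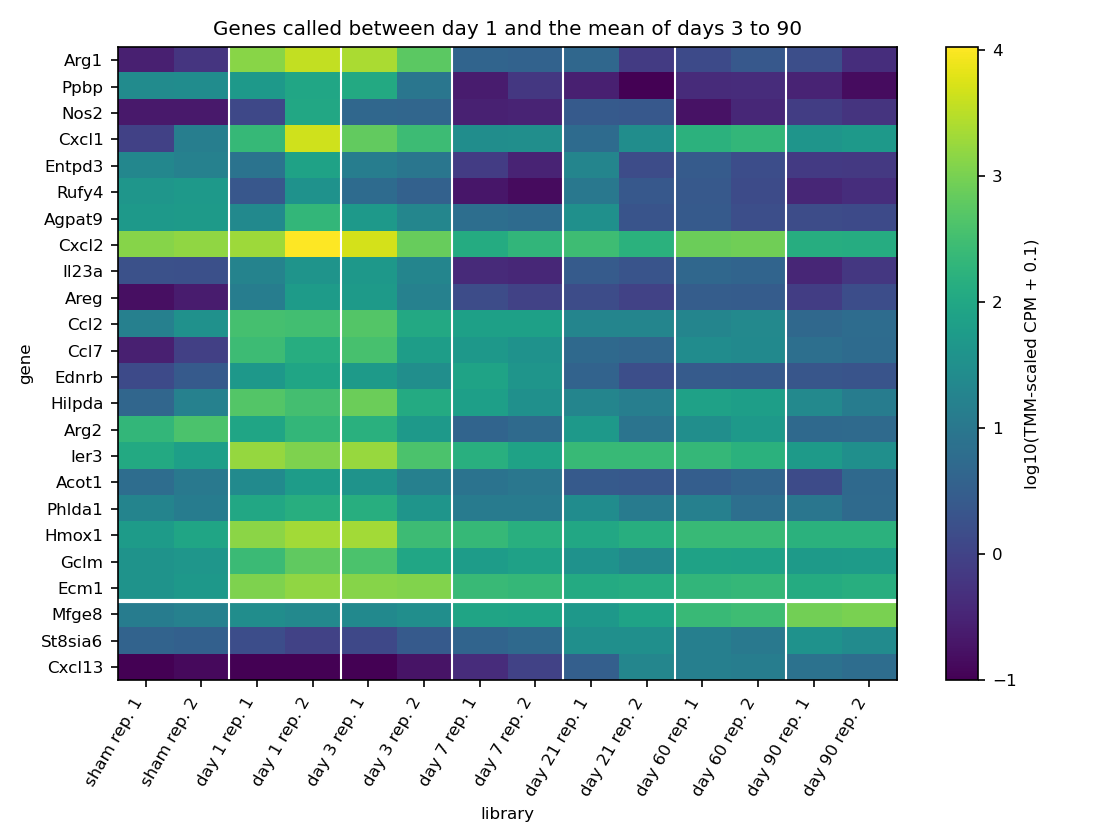
Heat map of log10 of TMM-scaled CPM with 0.1 added for 24 of the 25 genes called between day 1 and the mean of days 3 to 90, ordered by log2 difference, in all 14 libraries, with 21 higher genes above the white line and 3 of the 4 lower ones below it. For the higher genes day 3 replicate 1 reaches or passes the lower day 1 library, and day 3 replicate 2 is lower than day 3 replicate 1. Hmox1 for example has 1421 and 2065 CPM at day 1 and 2079.6 and 279 CPM at day 3. For most higher genes the libraries from day 7 on are darker.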

How the data were processed

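RNA of sorted cortical cells was sequenced in 14 libraries, 2 for each of 7 groups. The authors deposited whole-number read counts per gene. The submitters' processing notes name the mm9 build, HTSeq 0.6.1 and Bowtie2 2.3.4.2. For the annotation and the strand setting they name nothing, so reads of overlapping or antisense partners cannot be assigned with certainty. Groups were taken from the sample labels, and the replicate number from the same label.

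Counts of all 14 libraries were fitted together, with 1 coefficient for each group, so that the spread was shared over 7 residual degrees of freedom (R 4.3.3, edgeR 4.0.16, quasi-likelihood test, TMM scaling, Benjamini-Hochberg adjustment over all genes tested, threshold 0.05). The edgeR filter on low counts left 13861 of 14084 genes. Log2 differences within a replicate number used a prior count of 2. A gene was called separated where both day 1 libraries lay on one side of both sham libraries. For genes with no count in a group, the fold is a bound against 3 counts over that group. Depths are given with the results, and intervals of counting error are not given since the spread between libraries was far larger (chi-square per degree of freedom of 473 between the sham libraries and 1407 between the day 1 libraries). Alternatives were DESeq2 1.42.0, limma-voom (limma 3.58.1), upper-quartile scaling, no filter, only the compared groups in the fit, the replicate number as a block, and each library left out in turn, of which those of days 3 to 90 were added after seeing the data. Figures were drawn with matplotlib 3.10.9 in Python 3.11.15.

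The members and lists were chosen with earlier results of these data known. Some genes that the rules would name are not reported here. Genes were named by rule: in each direction the 12 called genes whose smaller replicate difference was largest, at a mean log2 CPM of at least 3, up to 4 called members of each function list by size, the 2 most abundant members of a list with none, the 3 most abundant of each marker list, and a set of landmark genes. For the later times the rule named up to 8 called genes in each direction whose day 1 libraries lay outside all 10 later ones, and no called gene met it. Chosen after their values were seen, those of the later comparison included, were Acsl1, Arg2, C3, Ccl12, Ccl2, Ccl6, Cd80, Chac1, Clec1b, Clec7a, Cxcl10, Cxcl13, Cxcl16, Cxcl2, Cxcl3, Cxcr2, Ddit3, Dnaja1, Ecm1, Fscn1, Gsr, H2-Ab1, H2-Q1, Hspa1a, Hspa1b, Il10, Il23a, Irg1, Isg15, Itgb3, Kdr, Mfge8, Mki67, Mrc1, Nfe2l2, Nfkbiz, Nlrp3, Odc1, Ptgs2, Slc2a3, Srm, Srp54a, St8sia6, Tfeb, Thbs1, Tlr1, Tnfaip3 and Vegfb.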

Additional observations from a re-analysis of the deposited data

How the results depend on the processing

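No count or named gene that was called changed direction in any of the alternatives run. Against sham, DESeq2 called 1878 genes (1076 higher, 802 lower, 1825 separated), and limma-voom called 283 higher. With 1 sham or day 1 library left out the counts ranged from 76 to 947 in all, from 57 to 671 higher, from 19 to 276 lower and from 76 to 947 separated. With 1 library of another time left out they ranged from 367 to 1098 in all, from 283 to 661 higher, from 83 to 437 lower and from 367 to 1096 separated. Against the later times, DESeq2 called 564 genes, and leaving out 1 library gave 1 to 378. Upper-quartile scaling, no filter and the fit of only the compared groups kept each of these counts over all genes within 1.5 times, but with only the compared groups 364 of the 631 genes were shared, and list counts moved: unfolded protein response genes that rose went from 4 to 0, NF-kB genes from 4 to 1, class II genes from 3 to 1, immediate early genes from 3 to 1, glycolysis genes from 2 to 1 and heme genes from 1 to 2, and interferon-stimulated genes that fell went from 4 to 1 and glycolysis genes from 2 to 0. Of the 631 genes 631 were called by DESeq2, 437 by limma-voom and 53 in all 10 of DESeq2, limma-voom, upper-quartile scaling, no filter, only the compared groups, the block and the 4 fits without a sham or day 1 library.

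Replicate numbers come from the labels, which do not say what they share. Deviations of same-numbered libraries from their group means correlated over genes at 0.236 between sham and day 1 and at 0.0734 (day 1 with day 21) to 0.681 over the 21 pairs of groups. Of these 20 were over 0.1 and 1 was not, so same-numbered libraries shared part of their deviations in most pairs of groups. The counts above leave this shared part out, and the block is given as an alternative. All 631 genes called above were also called with it. With the replicate number as a block the counts against sham were 1195 in all, 711 higher, 484 lower and 1177 separated, and 20 genes were called against the later times.

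With 2 libraries a group, 1 library decides many calls. Replicate 1 was the shallower library in both groups, and genes with fewer than 3 counts in it could not be told from 0 there.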

Other observations

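Heat shock proteins, chaperones that cells induce under protein stress, were mostly higher at day 1 without passing the test. Of 15 genes none was called by edgeR, 9 had both day 1 libraries above both sham libraries (against 22.2% of all genes tested), 5 were higher at an unadjusted p under 0.05, and DESeq2 called 4 and limma-voom 0. Hspa1a had 28.1 and 23.9 CPM in sham and 60.9 and 327 CPM at day 1 (log2 2.90 ± 0.77, adjusted p = 0.0537), and Hspa1b, its neighbouring copy, had 18.2 and 18.8 CPM in sham and 23.5 and 252 CPM at day 1 (adjusted p = 0.1). In both the level was highest in day 1 replicate 2. Dnaja1, a cochaperone, had 58.0 and 93.7 CPM in sham and 26.1 and 32.5 CPM at day 1, lower in both day 1 libraries (adjusted p = 0.156).

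Pattern recognition receptors did not pass either. Of 20 Toll-like and inflammasome receptor genes none was called by edgeR, 4 were higher and 2 lower at an unadjusted p under 0.05, DESeq2 called 2 higher and 1 lower, and limma-voom called 0. Cd14, the coreceptor of lipopolysaccharide, had 1189 and 1090.3 CPM in sham and 4560.5 and 5938 CPM at day 1 (log2 2.20 ± 0.63, adjusted p = 0.0707), and Tlr1 had 17.6 and 12.6 CPM in sham and 61.4 and 40.2 CPM at day 1 (adjusted p = 0.0537), both above sham in both replicates. Nlrp3, the inflammasome sensor, had 174 and 85.7 CPM in sham and 29.0 and 157 CPM at day 1 with overlapping groups (adjusted p = 0.724). Of 21 cholesterol synthesis genes none was called by edgeR, DESeq2 or limma-voom, and 3 were higher and 1 lower at an unadjusted p under 0.05. In 16 of 21 the level was higher in day 1 replicate 2 than in day 1 replicate 1, against 6438 of all 13861 genes tested.

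Erythroid markers summed to 192 and 255 CPM in sham and 1.36 and 9.24 CPM at day 1, and platelet markers to 125 and 121 CPM in sham and 581 and 347 CPM at day 1, most of it Pf4. Of the 10 platelet markers 3 fell (30%, against 1.37% of all genes tested), among them Tubb1 and Clec1b. Clec1b, a platelet receptor, had 0.511 and 0.366 CPM at day 1 and was higher in both sham libraries (log2 -4.51 ± 0.95, adjusted p = 0.0221). Mast cell and basophil markers summed to 1140.0 and 1154 CPM in sham and 36.6 and 522 CPM at day 1, nearly all of it Hdc, which makes histamine, with 1133 and 1144 CPM in sham and 35.2 and 516 CPM at day 1 (adjusted p = 0.408). Astrocyte markers summed to 3.76 and 21.5 CPM in sham and 26.2 and 89.8 CPM at day 1, and neuronal markers to 0.728 and 1.69 CPM in sham and 1.59 and 14.4 CPM at day 1, both highest in day 1 replicate 2. Of these 2 lists no gene was called by edgeR, where 4 and 2 genes were higher at an unadjusted p under 0.05, and DESeq2 called 3 and 0. Oligodendrocyte markers summed to 614 and 316 CPM in sham and 168 and 222 CPM at day 1, most of it Mbp, with 539 and 239 CPM in sham and 50.7 and 153 CPM at day 1 (adjusted p = 0.141). Dendritic cell markers summed to 474 and 593 CPM in sham and 1012 and 495 CPM at day 1, and 1 of 12 rose, Fscn1, an actin-bundling protein of mature dendritic cells, with 0.364 and 0.606 CPM in sham and 6.35 and 14.9 CPM at day 1 (log2 4.40 ± 0.79, adjusted p = 0.0109). Kdr, a receptor of Vegfa on endothelial cells, was the 1 of 12 endothelial and pericyte markers that rose, with 0.182 and 0.119 CPM in sham and 4.37 and 3.05 CPM at day 1 (log2 4.68 ± 0.85, adjusted p = 0.0109), while Ly6c1 had 0.0606 and 1747 CPM in sham and 3.18 and 267 CPM at day 1, with 34.8% of its 50-base words shared with other genes. None of Fscn1, Kdr, Clec1b and Tubb1 was called in all 4 of the fits that left out a sham or day 1 library.

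A set of genes followed the replicate number and not the group. In 104 genes all 7 libraries of replicate 2 were at least 4 times as high as all 7 of replicate 1, and in 1 gene the reverse held. Srp54a had 0.728 and 4173 CPM in sham and 0.170 and 1307 CPM at day 1, and H2-Q1 had 1.27 and 14319 CPM in sham and 1.30 and 5258 CPM at day 1. The labels do not say what the numbers share.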
